A study of Arabidopsis thaliana with 8 samples.

Results

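R-loops are stretches of DNA in which an RNA strand has paired with its template and displaced the other DNA strand. They form behind RNA polymerase, and gene starts are among the places where they are most often mapped in plants, animals and yeast. RNase H digests the RNA of the hybrid, and topoisomerases and RNA helicases keep R-loops in check. In human cells R-loops at promoters are known to accompany GC skew, an excess of G over C on the strand that reads like the RNA. The peaks described here lie just inside the starts of protein-coding genes on the chromosome arms of *Arabidopsis thaliana*.

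They come from DRIP-seq, in which the S9.6 antibody against DNA:RNA hybrids pulls down sonicated nucleic acid, of 10-day-old seedlings of the wild type Col-0 and of *ndx1-4*. The mutant is a T-DNA insertion line, in the Col-0 background, of NODULIN HOMEOBOX (*NDX*), and it stands for 1 insertion allele. Of the 8 libraries each genotype had 4, namely 2 IPs, 1 IP after RNase H treatment and 1 input. Each genotype was given as 1 peak list, so no value below has an error between replicates, no test between genotypes was made, and the depth of the libraries is unknown.

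A peak was taken as a start peak when its midpoint lay 0 to 500 bases downstream of the start of a protein-coding gene (RefSeq models of TAIR10.1, by strand) and inside that gene, outside the pericentromeres. The Col-0 list held 3519 start peaks among 11493 arm peaks and 14180 peaks in all. The *ndx1-4* list held 3351 among 10960 arm peaks and 13549 in all. Start peaks thus made up 30.6% of arm peaks in both lists (95% Wilson intervals, Col-0 first, 29.8 to 31.5% and 29.7 to 31.4%). All intervals given here cover counting error only. Each chromosome held between 517 and 956 start peaks in Col-0 and between 488 and 927 in *ndx1-4*.

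The rule fixes where the midpoints may lie, but not how they are spread inside the window or just outside it. Counted against the nearest gene start, Col-0 midpoints rose from 117 in the bin 200 to 151 bases upstream to 260 in the last 50 bases before the start. The first 50 bases inside the gene held 338, and the count was highest, at 486, in the bin from 150 to 199 bases downstream. It was 186 in the last bin inside the window and 132 in the first bin beyond it. In *ndx1-4* the highest count was 456, in the same bin, with 253 just before the start, 320 just after it, 176 in the last bin of the window and 133 in the first bin beyond. The edges of the window therefore cut through a slope, most of all at the gene start.

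**Figure D1:**
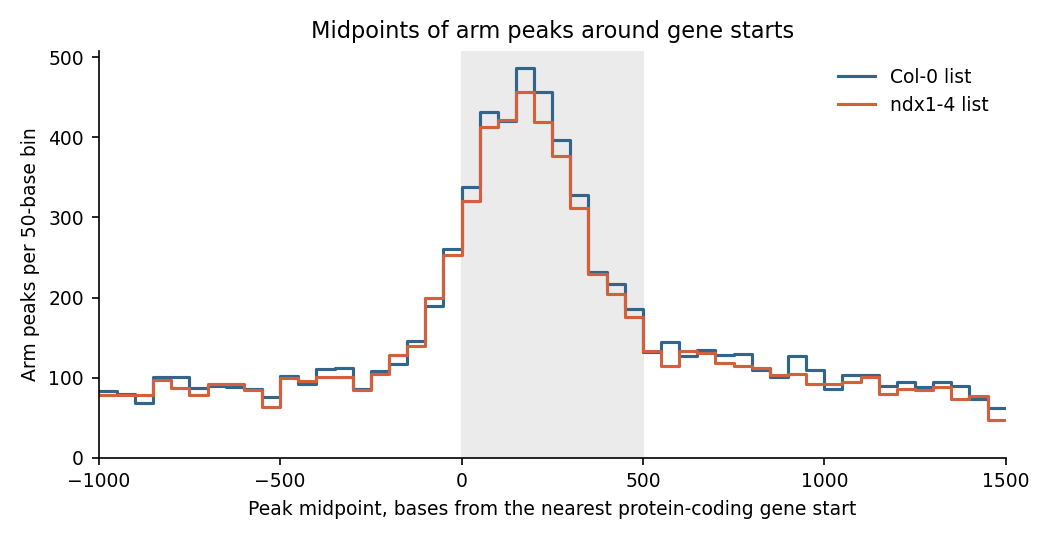
Number of arm peaks per 50-base bin (y axis) by the distance of the peak midpoint from the nearest protein-coding gene start (x axis, bases along the gene's strand) in the Col-0 and *ndx1-4* lists; the grey band is the window of 0 to 500 bases. Both lists peak 150 to 199 bases downstream, at 486 and 456 peaks, and fall to 132 and 133 just beyond the window.

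A feature of part of the sequences under the peaks was runs of C and T on the sense strand, which reads like the mRNA. For the 6 pairs of overlapping start peaks with the best mean score rank over both lists, the 30 bases inside both peaks with the highest share of pyrimidines (C and T) or of purines (A and G) are shown, to make this feature visible. All are read 5′ to 3′ on the gene's strand from the TAIR10.1 genome, and capitals mark runs of at least 5 pyrimidines or, in the last gene, of at least 5 purines.
AT2G25220, 5′ UTR, chr2:10745739-10745768, minus strand: CTCCCTTTCTCTTTCCCTCCTTTatttgcc
NAC067, intron, chr4:658934-658963, minus strand: TCTCTCTCTCTTTCTCTCTCTCaTTCTCTC
AIL5, 5′ UTR, chr5:23256576-23256605, minus strand: TCCTCTCTCTTTCTCTCTCTatctaTCTCT
PAN, intron, chr1:25772200-25772229, minus strand: acaCTTCTCCTTCTCTCTTTTTCTCTTCTT
ZFN1, 5′ UTR, chr3:613829-613858, plus strand: CTTTTCgTCTTTCTCTCTCTCTTTCTTTCT
HK3, 5′ UTR, chr1:9487102-9487131, plus strand: agataatAGAGAGAGAGAGAGAGAGAAGGA
In 5 of the 6 genes the window was pyrimidine-rich, with 28 or 29 pyrimidines of 30, and in HK3 it held 28 purines. The windows began between 51 and 421 bases downstream of the gene start.

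Longer stretches of the same peaks outside the UTRs were uneven in this feature. The first 120 bases of the NAC067 intron held 103 pyrimidines (85.8%), and the first 120 bases of the AIL5 coding sequence, which begins with the start codon, held 82 (68.3%). Intron stretches held 60% pyrimidines in AT2G25220 and 56.4% in PAN, and the stretches upstream of the gene start held 45.6% in HK3 and 36.6% in ZFN1. The runs were thus local in most of the 6 genes, and the pair with the highest shares is shown.
NAC067, intron, chr4:658902-659021, minus strand: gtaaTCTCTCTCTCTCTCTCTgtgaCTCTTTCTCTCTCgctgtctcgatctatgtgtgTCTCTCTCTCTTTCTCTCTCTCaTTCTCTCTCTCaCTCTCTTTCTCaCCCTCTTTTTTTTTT
AIL5, coding sequence, chr5:23256318-23256437, minus strand: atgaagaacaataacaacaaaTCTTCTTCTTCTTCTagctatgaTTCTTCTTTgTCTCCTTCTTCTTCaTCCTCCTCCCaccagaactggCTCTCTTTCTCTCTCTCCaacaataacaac

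The peaks behind these sequences had similar spans in the lists. AT2G25220, which encodes a protein kinase, had a start peak of 720 bases with a score of 387 in Col-0 and of 660 bases with a score of 348 in *ndx1-4*. The score is a whole number given with each peak, whose unit is not stated, so only its rank within a list was used. These scores stood at percentiles 99.7 and 99.8 of their lists. The start peak of NAC067, a NAC transcription factor, spanned 840 and 820 bases, with 43.9% purines in Col-0. AIL5, an AP2 factor of the AINTEGUMENTA group, had peaks of 840 and 880 bases. PAN (PERIANTHIA), a bZIP factor that sets floral organ number, had peaks of 620 and 640 bases. ZFN1, a zinc finger protein, had peaks of 580 and 620 bases, and HK3, a histidine kinase that is a cytokinin receptor, of 880 and 820 bases. The edges of these pairs differed by 60 bases at most. All 6 ranked above percentile 99.4 in both lists, which follows from their choice by score rank. Peaks without a partner could not enter this set.

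Start peaks were longer than other arm peaks. The median start peak spanned 380 bases in each list (quartiles 280 and 520), and the median of the other arm peaks was 320 bases. At least 500 bases were spanned by 30.8% of Col-0 start peaks (29.3 to 32.3%) and by 21.9% of other arm peaks in that list (21.0 to 22.9%). The longest start peak in both lists lay at AT3G20260, a gene of the DUF1666 family, with 1900 bases in Col-0 and 1880 in *ndx1-4*. The peak at AGO9, an Argonaute that acts in female germline formation, spanned 1600 bases with the same edges in both lists. The third longest lay at AT1G06420 in Col-0 (1540 bases, no partner) and at MAP70-5, a microtubule-associated protein, in *ndx1-4* (1460 bases, against 1160 in Col-0). The median midpoint lay 209 bases from the start in Col-0 and 207 in *ndx1-4*.

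Start peaks differed in how much of the start region they covered. The median upstream edge lay 7 bases before the gene start in Col-0, and the median downstream edge lay 414 bases after it. Of the Col-0 start peaks 1812 (51.5%) covered the gene start, 1824 (51.8%) covered the start codon, 1019 (28.96%) covered both and 902 (25.6%) neither. In *ndx1-4* 28.3% covered both. Of all bases under start peaks 47.9% lay in 5′ UTRs in Col-0 and 48.3% in *ndx1-4*. Coding sequence held 21.7% and 21.6%, introns 16.04% and 16.1%, and sequence upstream of the gene 13.6% and 13.3%.

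On the sense strand most start peaks were poor in purines. The median purine content was 42.9% in Col-0 (95% interval of the median 42.6 to 43.2%, 3519 peaks) and 42.8% in *ndx1-4* (42.5 to 43.2%). Peaks further inside genes had a median of 55.0% in both lists (54.5 to 55.5% in Col-0, 4195 peaks), and peaks up to 500 bases upstream of a start 49.5% (48.8 to 50.2%, 1065 peaks) and 48.9%. In the Col-0 list 1118 start peaks (31.8%) had under 40% purines and 161 (4.58%) over 60%. Further inside genes these shares were 14.2% and 27.7%, so pyrimidine-rich peaks were the more frequent kind at starts and purine-rich ones in gene bodies. GC skew followed the same order, with medians of -0.146 at starts, -0.0675 upstream and 0.203 further inside genes in Col-0. In *ndx1-4* the medians were -0.147, -0.0842 and 0.200. The intervals of these medians did not overlap between start peaks and either other class in either list. The peak files give no strand, so the values describe the gene's sense strand and not the strand of the hybrid.

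Purine content also depended on the place within the window. It was lowest for Col-0 midpoints 200 to 299 bases from the start (median 41.3%, with 39.1% of peaks under 40% purines) and was 45.0% for midpoints within the first 100 bases. In *ndx1-4* these medians were 41.5% and 45.0%. Peaks with more bases in 5′ UTR than in any other class (2096 in Col-0) had a median of 41.9% purines. Those led by intron sequence (492) had 40.9%, and those led by coding sequence (762) had 48.3%. Col-0 peaks over 60% purines had a median length of 300 bases, against 360 bases for those under 40% and 420 bases for those between. In *ndx1-4* the gap between the outer classes was smaller, with medians of 320, 340 and 400 bases in the same order.

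The same comparison was made between genes, over the first 500 bases downstream of every arm gene start. Of 25517 arm genes, 3535 had a start peak in Col-0 and 3360 in *ndx1-4*. Both lists had one at 3129 genes, which was 12.3% of arm genes and is the background for all shares of genes below. Genes with a start peak in both lists had a median of 43.6% purines (43.4 to 43.8%) and genes with none in either list 47.4% (47.4 to 47.6%, 21751 genes). Median GC content was 36.2% against 40%, and median GC skew -0.119 against -0.0329. The difference lay in G and T. Genes with a start peak had 15.8% G and 35.4% T, against 19.0% and 31.4%, while C was 20.0% against 20.4% and A 28.2% against 28.4%. Because peak midpoints lie in this window, these values describe the sequence under and beside the peaks and are no independent measure.

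Along the gene the groups parted inside the start. In the 50 bases before it mean purine content was 50.5% in genes with a start peak in both lists and 50.2% in the others. It fell to 42.2% in the bin 150 to 199 bases downstream, where the others had 46.7%, and was 49.6% against 49.7% in the bin 950 to 999 bases downstream. GC content was lower in genes with a start peak already upstream, at 30.8% against 32.4% in the last 50 bases before the start. The gap was widest 300 to 349 bases downstream, at 36.5% against 41.5%.

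**Figure D2:**
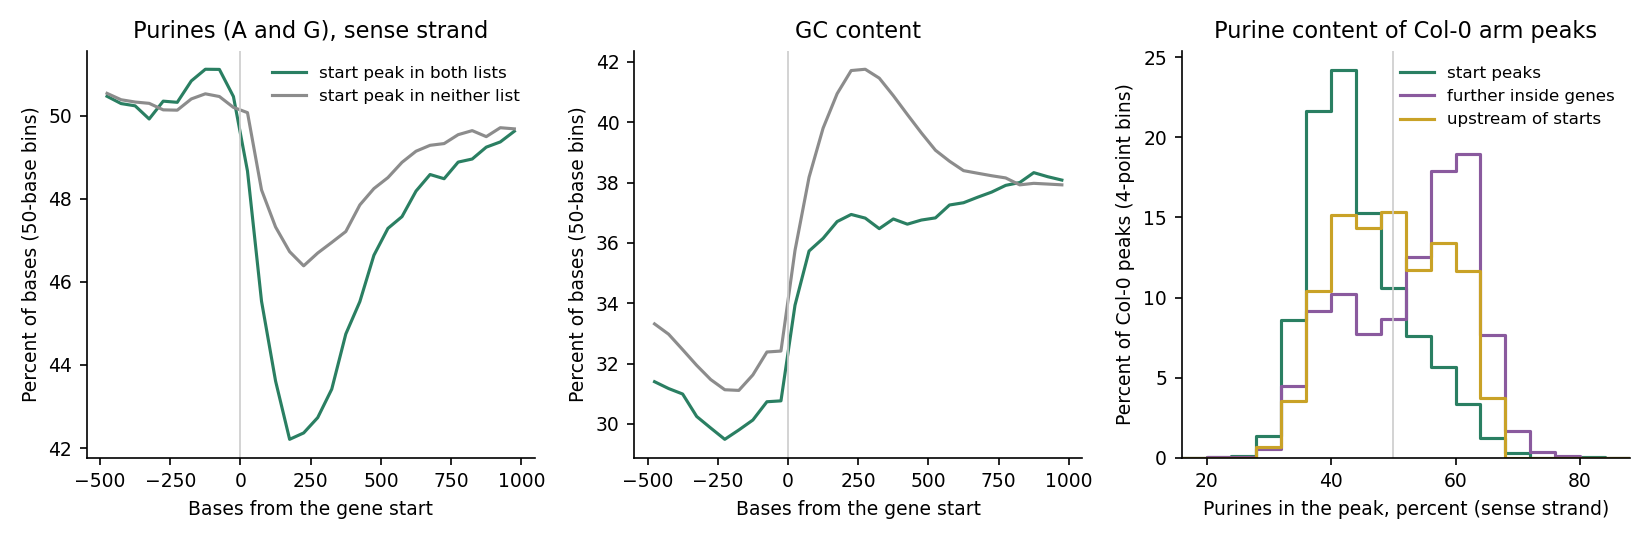
Left and middle, mean percent of purines on the sense strand and mean GC percent (y axes, 50-base bins) by distance from the gene start for the 3129 arm genes with a start peak in both lists and the genes with one in neither; right, share of Col-0 peaks (y axis) by their purine percent for start peaks, peaks further inside genes and peaks upstream of starts. Purine content of genes with start peaks falls to 42.2% inside the gene, and most start peaks lie below 50% purines.

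Sorted into deciles by purine content, arm genes had start peaks most often at the purine-poor end, with a smaller rise at the purine-rich end. In the decile with the fewest purines (27.0 to 40.6%) 924 of 2552 genes had a start peak in both lists, which was 36.2% (34.4 to 38.1%). The share fell to 4.70% (3.95 to 5.59%) in the eighth decile and was 12.2% (11.02 to 13.6%) in the decile with the most purines. The same shape appeared within each tercile of genes by GC content. In the tercile with the lowest GC content the share was 49.6% in the quintile of genes with the fewest purines, 11.5% in the next to last quintile and 20.8% in the last. In the tercile with the highest GC content these shares were 6.06%, 0.367% and 1.88%. By GC content alone, the share was 24.1% and 26.6% in the first and second decile, fell in every later one and reached 0.666% in the last (17 of 2551 genes). Regions of low or high GC content can be read with unequal efficiency by sequencing, and the part of this in the result was not tested.

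Short motifs differed in the same direction. TTCTTCTTC was found on the sense strand of the first 500 bases in 37.5% of genes with a start peak in both lists, in 13.0% of genes with none and in 16.4% of all arm genes. Its reverse complement GAAGAAGAA, which is the same motif on the other strand, was found in 14.99%, 8.52% and 9.43%. The same repeat in another frame, CTTCTTCTT, was found in 34.6%, 11.2% and 14.4%. TCTCTCTC was found in 33.1%, 16.4% and 18.8%, and its reverse complement GAGAGAGA in 11.2%, 7.08% and 7.74%. A run of 9 T was found in 18.8% against 9.16% (10.5% of all arm genes), and a run of 9 A in 15.1% against 9.75% (10.5%). All 7 were thus more frequent in genes with start peaks, and in each of the 3 pairs of reverse complements the pyrimidine motif was the more frequent there. Matches of TTCTTCTTC and CTTCTTCTT can overlap. A 30-base window with at least 28 pyrimidines, as in the sequences shown above, occurred in 1251 of these 3129 genes (39.98%), in 9.67% of genes with no start peak and in 14.0% of all arm genes. For 28 purines the shares were 13.2%, 4.85% and 6.13%. The longest run of pyrimidines had a median of 17 bases against 12, and the longest run of purines 11 against 10.

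Genes with a start peak also had longer 5′ UTRs. Their median 5′ UTR, without introns, was 232 bases (224 to 239), against 132 bases (130 to 134) in genes with none, and the median distance from the start to the start codon was 314 bases against 151. Among genes without an annotated 5′ UTR 172 of 3468 (4.96%) had a start peak in both lists. The share was 11.5% (11.1 to 12.01%) where the 5′ UTR had no intron and 23.3% (21.9 to 24.7%) where it had one. Within 5′ UTRs of 1 to 149 bases the shares were 7.03% without and 16.5% with an intron, within 150 to 299 bases 12.2% and 20.6%, and from 300 bases 23.2% and 30.2%. Both features therefore went with the share, each within classes of the other. Genes with a 5′ UTR intron also had a lower GC content over the first 500 bases (median 36.4% against 40%), and the part of this in the difference was not tested. Where no 5′ UTR is annotated, the gene model starts at its start codon, so the window began in coding sequence. The part of this in the shares was not tested either.

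**Figure D3:**
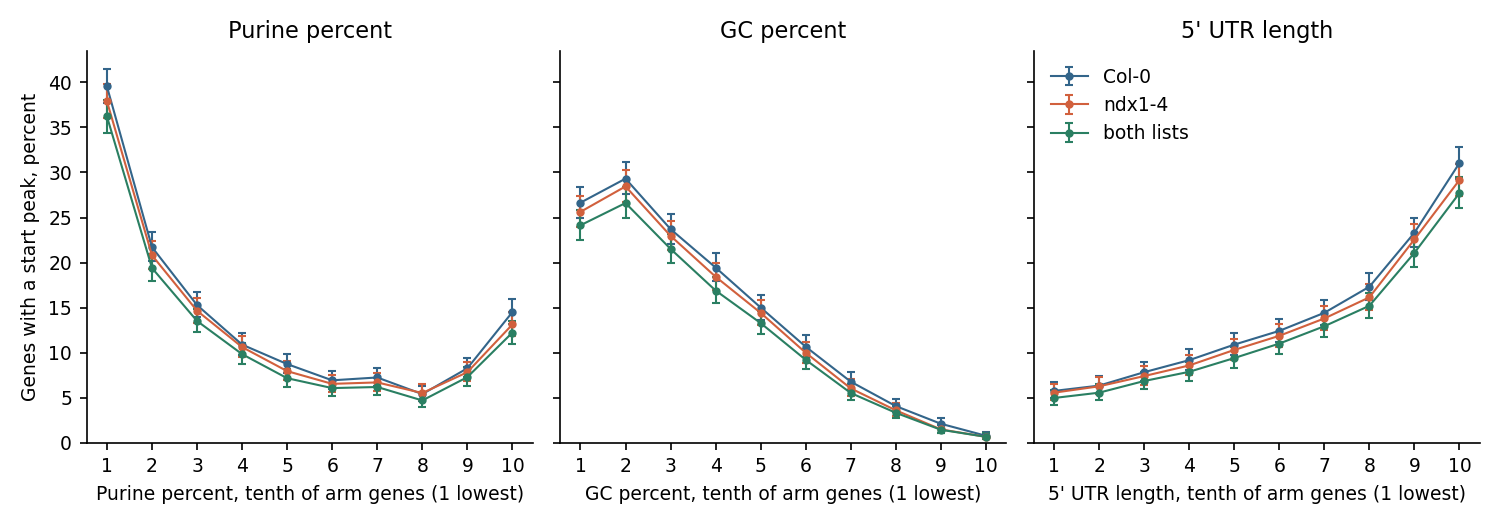
Percent of arm genes with a start peak in the Col-0 list, in the *ndx1-4* list and in both (y axis, error bars 95% Wilson intervals) in deciles of arm genes by purine percent and GC percent of the first 500 bases and by 5′ UTR length (x axes, 1 is the lowest). For both lists the share runs from 36.2% to 4.70% and back to 12.2% along purine content, and from 4.98% to 27.7% along 5′ UTR length.

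Gene structure and neighbours differed as well. Genes with a start peak in both lists were longer, with a median of 2593 bases (2531 to 2645) against 2033 (2014 to 2055). Of genes with 1 exon 7.49% had one, and of genes with more exons 13.4%. These groups also differed in median GC content (41.4% against 39%) and median 5′ UTR (96 against 152 bases). The part of this in the shares was not tested. Where the next protein-coding gene upstream was within 1000 bases, the share was 9.13% for head-to-head neighbours and 9.73% for tandem ones. With a neighbour further away it was 15.1% and 16.4%. An antisense lncRNA gene over the first 500 bases went with a share of 9.99% (8.13 to 12.2%), against 12.3% (11.9 to 12.8%) without one. These intervals overlapped. In the Col-0 list alone these shares were 12.8% (10.7 to 15.2%) and 13.9% (13.5 to 14.3%), also with overlapping intervals. In the *ndx1-4* list they were 10.5% (8.57 to 12.7%) and 13.3% (12.8 to 13.7%).

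The start peaks were then read by gene family, from 31 families defined by the product text of the annotation. A gene can be in more than 1 family. The background was 12.3% of arm genes with a start peak in both lists. The 4 highest shares were those of transcription factor families. Of 197 genes with homeobox or homeodomain-like products 68 had a start peak in both lists (34.5%, 28.2 to 41.4%). This product text also takes in MYB-type proteins. Without products called homeodomain-like the share was 39 of 101 genes (38.6%, 29.7 to 48.4%). MADS factors, some of which specify floral organs or flowering time, had 34 of 114 (29.8%), bZIP factors 17 of 59 (28.8%), and bHLH factors 33 of 132 (25%). Protein kinases, the largest family, came next with 211 of 960 (22.0%, 19.5 to 24.7%). The other transcription factor families ranged from NAC at 22 of 103 (21.4%), B3 at 25 of 127 (19.7%), MYB at 33 of 170 (19.4%) and WRKY at 13 of 70 (18.6%) to heat shock factors at 2 of 18 (11.1%) and ERF and other AP2 factors at 9 of 101 (8.91%, 4.76 to 16.1%). The heat shock factor list takes in HSBP, a heat shock factor binding protein, which had a start peak in both lists. The AP2 list rests on product text and leaves out the AINTEGUMENTA-like genes AIL5, AIL6 and AIL7, of which AIL5 and AIL7 had a start peak in both lists. RNA-binding and splicing proteins had 58 of 338 (17.2%), and transporters, at 56 of 440 (12.7%), stood near the background.

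At the low end, F-box proteins, which choose the targets of ubiquitin ligases, had a start peak in both lists at 23 of 609 genes (3.78%, 2.53 to 5.60%). Cytochrome P450s had 11 of 233 (4.72%), pentatricopeptide repeat proteins, which act on organelle RNA, 18 of 267 (6.74%) and ribosomal proteins 29 of 367 (7.90%, 5.56 to 11.1%). Core histones had 3 of 49 and topoisomerases, RNase H and related R-loop factors 1 of 16. The families also differ in sequence and structure. Median GC content over the first 500 bases was 37.4% in the homeobox list, 40.6% in F-box genes and 41.4% in cytochrome P450 genes, and the median 5′ UTR was 206, 0 and 98 bases. Within the tercile of arm genes with the lowest GC content, where 23.8% of all genes had a start peak in both lists, the shares were 55 of 100 for the homeobox list, 23 of 50 for MADS factors, 133 of 376 for protein kinases (35.4%), 13 of 113 for F-box proteins (11.5%, 6.85 to 18.7%) and 4 of 38 for cytochrome P450s (10.5%, 4.17 to 24.1%). Homeobox, MADS and kinase genes stood above that background and F-box genes below it, while the interval of the P450s included it. In the tercile with the highest GC content, where 2.25% of all genes had a start peak in both lists, the homeobox list had 0 of 47 (up to 7.56% by the Wilson interval) and MADS factors had 3 of 39. The part of 5′ UTR length in these shares was not tested.

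**Figure D4:**
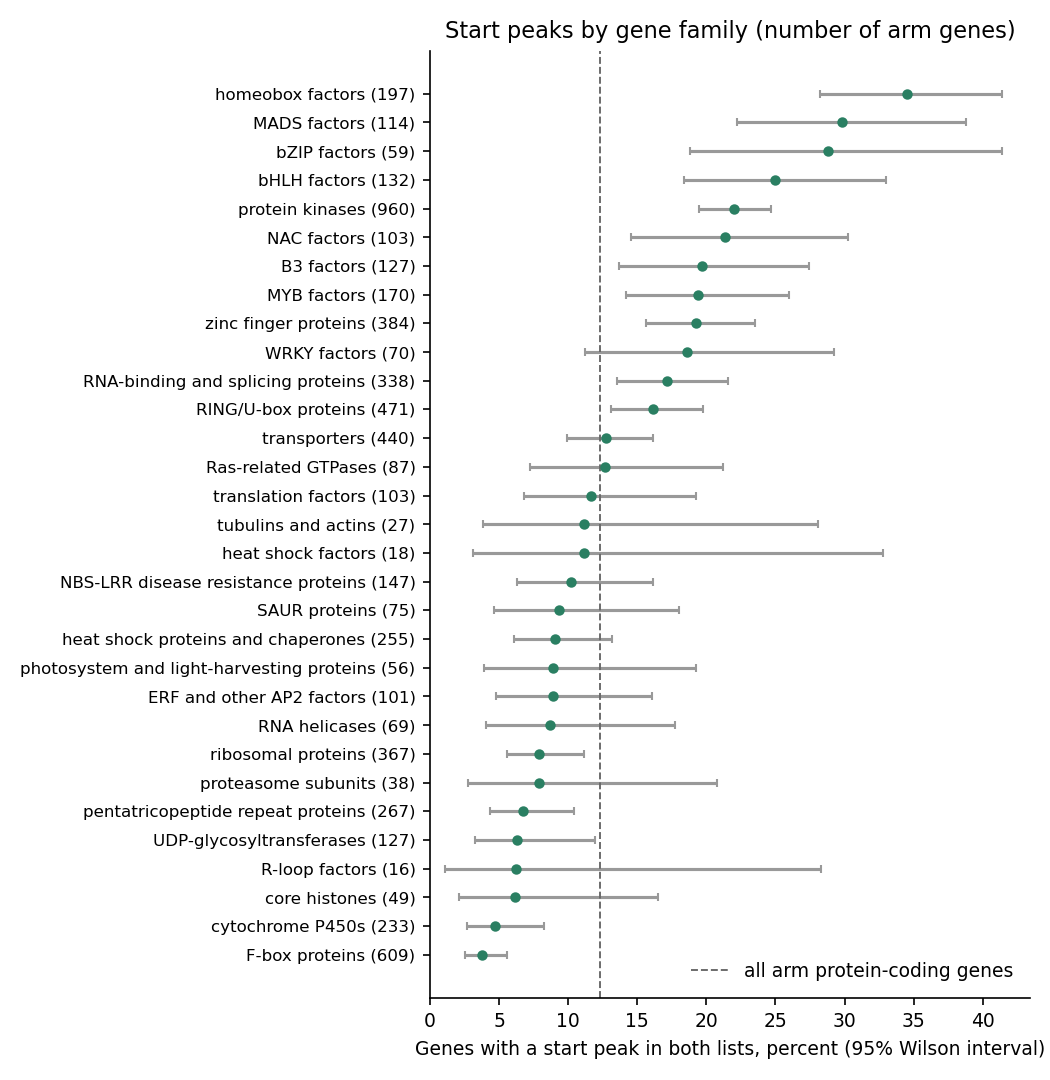
Percent of the arm genes of each family with a start peak in both lists (x axis, points; bars are 95% Wilson intervals) for 31 families (y axis, number of genes in brackets); the dashed line is the 12.3% of all arm genes. Homeobox factors, a list that takes in homeodomain-like products, stand highest at 34.5% and F-box proteins lowest at 3.78%.

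The best-ranked start peaks of these families were of similar length in both lists, with ATML1 the widest difference of those named in this paragraph. In the homeobox list they lay at FLP, a MYB protein that ends the divisions of stomatal precursors, with 1200 bases in Col-0 and 1160 in *ndx1-4*, at AT4G12670 (1080 and 1060 bases) and at ATML1, a regulator of epidermal identity (600 and 800 bases). Among MADS factors they were AGL65 (820 and 800 bases), the floral organ factor SEP3 (1000 and 980 bases) and SVP, a repressor of flowering (780 and 800 bases). SVP had 36.9% purines under its Col-0 peak and SEP3 53.7%. The bHLH gene AT3G23690 (700 and 680 bases) had 33.3%. The bHLH gene KDR, also called KIDARI and known from light signalling, had peaks of 740 and 760 bases. Among bZIP genes, bZIP44 had 600 and 580 bases. The zinc finger gene LATE had peaks of 680 and 700 bases with midpoints near the start, 73 bases into the gene in Col-0. AT1G55530, a RING/U-box gene, had peaks of 960 and 920 bases.

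Start peaks in the families nearer to or below the background included genes of hormone pathways. EBF1, an F-box protein that sends the ethylene factor EIN3 to degradation, had peaks of 540 bases in Col-0 and 480 in *ndx1-4*. AFB2, an F-box auxin receptor, had 600 and 520 bases. PLT2, an AP2 factor of root stem cells, had 480 bases in both lists with the same edges, and the seed oil regulator WRI1 620 bases in both. AUX1, the auxin influx carrier, had 580 and 560 bases. The cell skeleton genes ACT1 (560 and 540 bases) and ACT7 (340 and 300 bases) also had start peaks. The 3 core histone genes were HIS4 (500 and 540 bases), AT2G28720 (640 bases in both) and HTA11 (400 and 320 bases). FUS12, a COP9 signalosome subunit whose product text places it among proteasome proteins, had 520 bases in both. The only gene of the R-loop factors with one was TOPII, topoisomerase II, with 320 bases and the same edges in both lists and 32.2% purines.

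Between the lists, start peaks differed in number as other arm peaks did. The *ndx1-4* list had 168 fewer, a ratio of 0.952 (0.908 to 0.998), against 0.954 (0.925 to 0.985) for other arm peaks. The intervals assume independent lists, which these are not, since most peaks overlap. In Col-0 333 start peaks (9.46%, 8.54 to 10.5%) shared no base with an *ndx1-4* peak, against 11.9% of all Col-0 peaks on the chromosomes. In *ndx1-4* 177 (5.28%) shared none with a Col-0 peak, against 7.44% of all its peaks. The median length of start peaks without a partner was 220 bases in Col-0, against 400 bases with one, and their median score percentile was 22.3 against 57.5. Of Col-0 start peaks with a partner, 97.6% had one that was itself a start peak. A start peak in Col-0 only was found at 406 genes, and in *ndx1-4* only at 231. Of these genes, 20.9% and 26.4% had a peak of the other list over the first 500 bases whose midpoint lay elsewhere.

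The share of start peaks with a partner rose with the score rank and then, in Col-0, fell. It was 67.5% (61.8 to 72.7%) in the lowest decile of Col-0 scores, 98.96% in the seventh and 87.4% (84.0 to 90.2%) in the highest. In *ndx1-4* it was 72.3% in the lowest decile, 99.8% in the ninth and 98.8% (97.3 to 99.5%) in the highest. The fall in Col-0 was not particular to start peaks, since 84.2% (82.2 to 86.0%) of all Col-0 peaks in the highest decile had a partner and 82.7% of other arm peaks. In *ndx1-4* 98.2% of all peaks in the highest decile had one. Start peaks without a partner in the highest decile numbered 56 in Col-0, where 15.8% of all peaks of that decile had none, and 5 in *ndx1-4*, where 1.76% had none. The 56 had a median length of 700 bases, from 200 to 1540, against 600 bases for the 390 with a partner. Their median purine content was 44.0% against 42.4%. The 3 Col-0 start peaks with the highest scores were all among them. They lay at EMB2794, a tetratricopeptide repeat gene (780 bases, score 470), at AGO7, an Argonaute of trans-acting siRNA formation (1160 bases, score 467), and at ARF22, an auxin response factor (480 bases, score 426). In *ndx1-4* the highest-scoring ones without a partner lay at AT2G32360, a ubiquitin-like gene (520 bases, score 281), AT3G53640, a protein kinase (360 bases, score 190, 71.1% purines), and AT5G11130, an exostosin-family gene (820 bases, score 186).

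Where peaks were paired 1 to 1, their lengths were close. Among 3076 such pairs of start peaks, both edges lay within 40 bases in 85.4% (84.1 to 86.6%), and 695 pairs (22.6%) had identical edges. In 1332 pairs (43.3%, 41.6 to 45.1%) Col-0 had the longer peak and in 829 (26.95%) *ndx1-4* did, and 915 had equal lengths, with a median difference of 0 bases. Over all 12306 pairs the Col-0 peak was longer in 42.4% and the *ndx1-4* peak in 28.6%. A difference of at least 100 bases in favour of Col-0 was found in 136 start peak pairs (4.42%), against 4.52% of all pairs. In favour of *ndx1-4* it was found in 82 (2.67%), against 2.84%. Start peaks therefore stood near the background in both directions.

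The 6 pairs with the largest differences ranked between percentiles 2.86 and 94.8 of the Col-0 list. AT1G80640, a protein kinase, had a start peak of 660 bases in Col-0 and 320 in *ndx1-4*. BME3, a GATA factor of seed germination, had 1200 and 880 bases, and EIN2, the central membrane protein of ethylene signalling, 780 and 460. At EIN2 the upstream edge was the same in both lists and the downstream edge differed. In the other direction, PDF2, a prefoldin subunit, had 260 bases in Col-0 and 600 in *ndx1-4*. NPR4, a salicylic acid receptor, had 380 and 720, and MAP70-5 had 1160 and 1460. The PDF2 peaks ranked low, at percentiles 2.86 in Col-0 and 16.5 in *ndx1-4*.

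**Figure D5:**
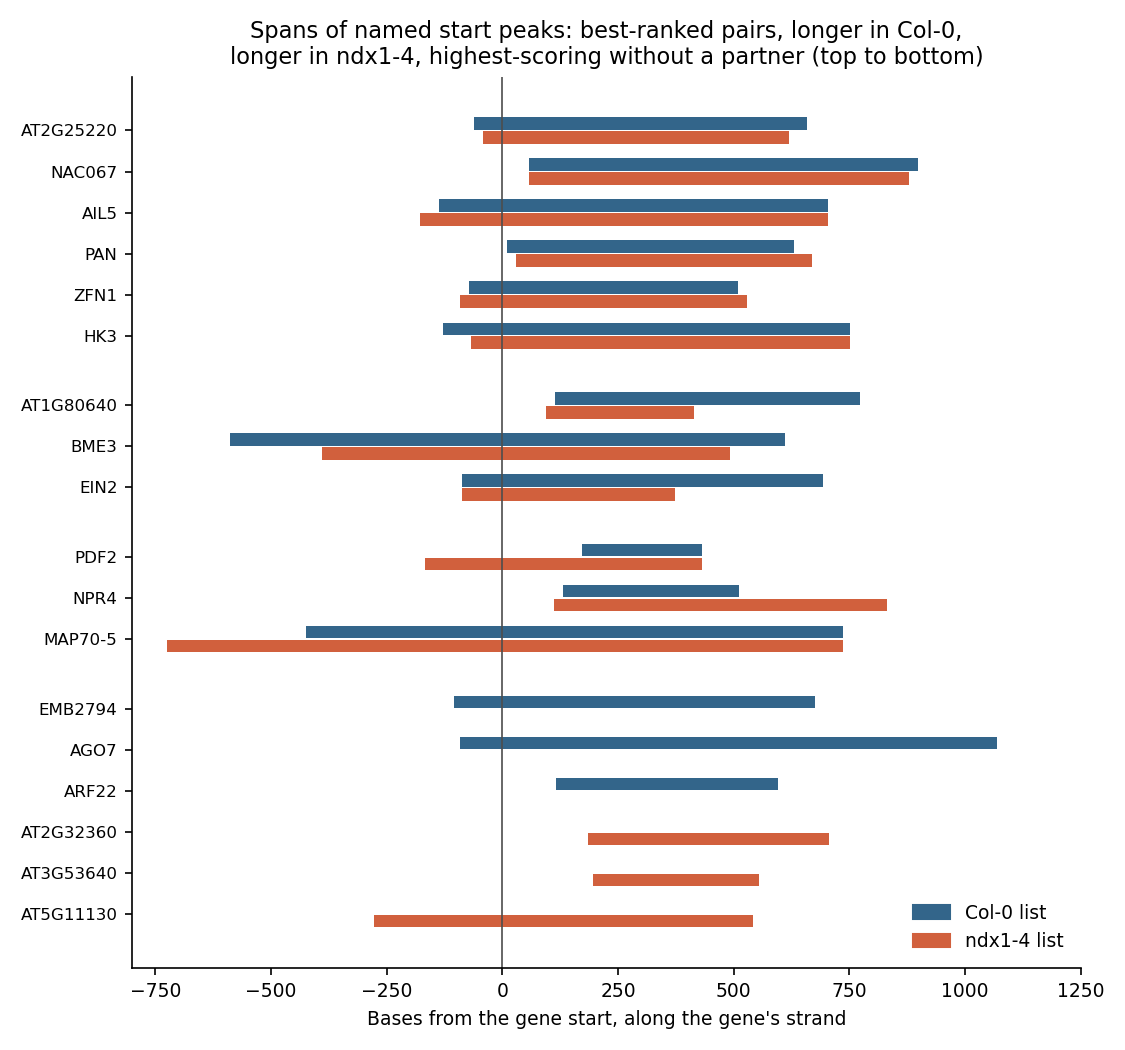
Spans of named start peaks (bars, Col-0 above *ndx1-4*) along the gene's strand, in bases from the gene start (x axis), for the 6 best-ranked pairs, the 3 pairs most in excess in Col-0 and in *ndx1-4*, and the 3 highest-scoring peaks without a partner in each list. The best-ranked pairs nearly coincide, and PDF2 has 260 bases in Col-0 against 600 in *ndx1-4*.

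Genes with a start peak in 1 list only lay between the other groups in sequence. The median purine content of their first 500 bases was 45.3% (44.2 to 46.2%) for Col-0 only and 44.6% (44.0 to 46.0%) for *ndx1-4* only, and the median 5′ UTR was 212 and 199 bases. Both groups were closer to genes with a start peak in both lists than to genes with none in 5′ UTR length. Few genes had more than 1 start peak, 7 with 2 in Col-0 and 15 in *ndx1-4*. BOR1, a boron transporter, and WRKY72 had 2 in both lists. At 23 places in Col-0 and 24 in *ndx1-4* 1 peak lay inside the start window of 2 genes.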

How the data were processed

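DRIP-seq peaks of 10-day-old Col-0 and *ndx1-4* seedlings were analysed. The authors deposited 1 peak list per genotype on TAIR10, with start, end and a whole-number score, and the unit of the score is not stated. The submitters' processing notes name Bowtie2, SAMtools, Picard, deepTools and MACS2, with no version or role. Which libraries entered each call, and whether they were pooled or set against the input, is not given in the sources used here. A list from deeper libraries usually holds more peaks, and this cannot be told apart from genotype. Peak starts lay on a 20-base grid, no peak was shorter than 200 bases and the smallest score was 53. In each list 2 peaks ended exactly at a chromosome end of the RefSeq TAIR10.1 genome, which checked the coordinates.

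Gene models were those of RefSeq for TAIR10.1 (27444 protein-coding genes on chromosomes 1 to 5). Pericentromeres left out were 12.6 to 17.2, 1.2 to 7.1, 10.7 to 16.1, 2.7 to 6.1 and 9.9 to 14.6 Mb of chromosomes 1 to 5. A peak in the window of 2 genes was described by the nearer start, and both genes were counted as having it. Partners shared at least 1 base. Intervals are 95% Wilson intervals for shares and binomial order statistics for medians. No test between genotypes was made, because peaks are not replicates. RNase H sensitivity, expression and unique mapping were not analysed here.

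The members and the lists were chosen with earlier results of these data known. The family definitions were written, and their wording corrected, after shares by product text had been seen, and the gene features, strata and shares of 30-base windows were chosen after a first look at the data. TTCTTCTTC, the reverse complement of GAAGAAGAA, was added to the motifs after their values were seen. The families therefore give no independent support. Named genes were, per list, the 3 highest-scoring, 3 longest and 3 highest-scoring start peaks without a partner, the 3 pairs with the largest length excess each way, the 6 pairs with the best mean score rank, and genes among the 3 best-ranked of each family. BOR1, WRKY72, AIL6 and AIL7 were named after their values were seen. The code was tested on simulated lists with known members and partners. Scripts ran in Python 3.11.15 with pandas 2.3.3 and numpy 2.4.6, scipy 1.17.1 gave the intervals, and figures were drawn in matplotlib 3.10.9.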

Additional observations from a re-analysis of the deposited data

How the results depend on the processing

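The 17 results were recomputed under 9 settings, 139 alternatives in all. Only the differences in purine content and in GC skew could change sign, and neither did. In 98 alternatives the value stayed within its 95% interval, or a count within 1.5 times, and 41 moved. No paired analysis was possible because the peaks of a genotype come as 1 list that carries no replicate number, and leaving out a replicate could not be done either. With only the higher-scoring 50% of each list, start peaks numbered 1938 in Col-0 and 1833 in *ndx1-4*, genes with one 1953 and 1850, genes in both lists 1696, peaks with a partner 88.9% and 93.6%, and the median length was 480 bases in Col-0 and 480 in *ndx1-4*. With only peaks of at least 500 bases the numbers were 1083 and 952 (ratio 0.879), genes 1095, 965 and 882, partners 82.1% and 92.9%, median lengths 620 and 620 bases, median distances 238 and 236 bases and 5′ UTR shares 43.8% and 44.8%. These 2 settings leave fewer peaks by construction. Both lists were cut, so partners below the cut were lost, which lowers the partner shares. Against the uncut other list, 97.2% to 98.96% of Col-0 start peaks in score deciles 6 to 9 had a partner. Decile 10 of Col-0 had 87.4%, and deciles 6 to 10 of *ndx1-4* had 98.8% to 99.8%. The difference in purine content between genes in both lists and in neither, -3.80 points, was -4.60 and -5.00 points under these 2 settings. That in GC skew, -0.0866, was -0.0988 and -0.107. A window of 300 bases gave median distances of 157 and 154 bases and 5′ UTR shares of 50.2% and 50.6%. A window of 1000 bases gave 279 and 277 bases, 39.4% and 40.1%, 89.4% of Col-0 peaks with a partner, -3.00 points of purines and -0.0654 of GC skew. Counted from the start of any annotated mRNA the median distances were 171 and 170 bases. Partners sharing 50% of both lengths left 93.3% of *ndx1-4* peaks with one. The interval of the 5′ UTR shares counts peaks, not bases. In the lowest decile of scores 67.5% of Col-0 and 72.3% of *ndx1-4* start peaks had a partner. Library depth is unknown and its part was not tested.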
